A study of Saccharomyces cerevisiae with 24 samples.

Results

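The genes described here are the 10 that encode the core histones, the histone variant H2A.Z and the linker histone H1 of budding yeast (Saccharomyces cerevisiae). They are defined by gene name and make up 10 of the 7126 genes listed for each sample. HTA1 and HTA2 encode H2A, HTB1 and HTB2 encode H2B, HHT1 and HHT2 encode H3, HHF1 and HHF2 encode H4, HTZ1 encodes H2A.Z and HHO1 encodes H1. All 10 were found in both tables of values and all 10 passed the filter on low values in both.

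RNA-seq was performed on 24 asynchronous cultures, in 2 sets of 12 that each held 4 strains with 3 biological replicates. The phosphomutant set asked how blocking the phosphorylation of Yhp1 and Yox1 by the cyclin-dependent kinase Cdk1 changes gene expression, and the deletion set asked the same for loss of either repressor or both. Expression was given in TPM, a transcript level scaled for gene length and to the same total in every sample, so levels of different genes can be compared. Cultures were bulk samples, in which fewer cells in S phase and less RNA per cell cannot be told apart.

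All strains were MATa haploids of the BY4741 background carrying ura3Δ0, leu2Δ0 and, by the labels, his3Δ0, and all grew in the rich medium YM-1 with 2% dextrose. All also carried met15Δ0 except yhp1Δ, whose label gives lys2Δ0 in its place. Wild type was the same tagged strain in both sets, with YOX1-3V5-KanMx and YHP1-13MYC-LEU2. The yhp1-13A strain carried yhp1-13A-13MYC-LEU2 beside an untagged YOX1, and yox1-9A carried yox1-9A-3V5-KanMx beside an untagged YHP1 and therefore had no LEU2 marker. The yhp1-13A yox1-9A strain combined both tagged alleles. The yhp1Δ strain held yhp1Δ::LEU2, yox1Δ held yox1Δ::KanMX with no LEU2 marker, and yhp1Δ yox1Δ held yhp1Δ::LEU2 with yox1Δ::NatMX. Each group was 1 strain by its strain number, so a change particular to that isolate cannot be told apart from the allele.

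Pairs of H2A-H2B and a tetramer of H3 and H4 form the nucleosome around which DNA is wrapped. In budding yeast each core histone is encoded by a pair of genes that lie head to head with a gene for its partner, and their transcription is confined largely to late G1 and S phase by the factors SBF and MBF and by Spt10, and is held down outside S phase by the HIR complex, Asf1 and Rtt106. H2A.Z replaces H2A in nucleosomes that flank promoters, where the SWR1 complex deposits it, and Hho1 is the linker histone, which binds DNA between nucleosomes. Yhp1 and Yox1 are homeodomain repressors that act with Mcm1 on genes of the M/G1 and G2/M phases.

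The recovered depth ran from 16967873 to 18255340 fragments a sample among phosphomutants and their wild type, and from 18123679 to 18867894 in the deletion set. No YHP1 signal (0 TPM) was listed for any yhp1Δ sample, and yhp1Δ yox1Δ held 0 to 0.0424 TPM, against 30.8 to 37.2 TPM in their wild type. YOX1 was at 0.563 to 0.998 TPM in yox1Δ and 1.39 to 1.81 TPM in yhp1Δ yox1Δ, against 85.9 to 108 TPM. The a-cell genes MFA1, MFA2, STE2, BAR1 and AGA2 were expressed in every sample (74.7 to 9210 TPM), and the alpha-cell genes MF(ALPHA)1, MF(ALPHA)2 and STE3 stood at 0.19 to 16.9 TPM, which matches the MATa label.

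In the R64 genome, HTB1 (YDR224C, chrIV:914317-914712, minus strand) and HTA1 (YDR225W, chrIV:915530-915928, plus strand) are separated by 817 bases. HTA2 (YBL003C, chrII:235394-235792, minus strand) and HTB2 (YBL002W, chrII:236492-236887, plus strand) are separated by 699 bases. HHF1 (YBR009C, chrII:255373-255684, minus strand) and HHT1 (YBR010W, chrII:256331-256741, plus strand) lie 646 bases apart, and HHT2 (YNL031C, chrXIV:575640-576050, minus strand) and HHF2 (YNL030W, chrXIV:576727-577038, plus strand) lie 676 bases apart. HTZ1 (YOL012C, chrXV:303579-303983) and HHO1 (YPL127C, chrXVI:308828-309604) are on the minus strand with no histone gene beside them. Gene lengths in the files equalled those of the coding annotation, so UTRs took no part in the values.

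The 2 copies of a core histone gene are close to identical, which bears on how fragments were shared between them. The copies of HHF differ at 8 of 312 coding bases and share a longest identical run of 80 bases, whereas those of HTB differ at 48 of 396 bases with a longest run of 35. HTA1 and HTA2 differ at 25 of 399 bases and HHT1 and HHT2 at 28 of 411. The encoded H3 and H4 proteins are the same from both copies, H2A differs at 2 of 132 residues and H2B at 4 of 131. The first 90 coding bases of the most alike and the least alike pair are shown from the R64 sequence, with capitals at bases that differ from the other copy.
HHF1: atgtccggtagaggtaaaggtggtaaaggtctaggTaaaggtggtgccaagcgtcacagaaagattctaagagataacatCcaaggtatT
HHF2: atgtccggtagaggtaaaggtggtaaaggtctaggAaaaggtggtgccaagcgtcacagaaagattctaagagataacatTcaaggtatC
HTB1: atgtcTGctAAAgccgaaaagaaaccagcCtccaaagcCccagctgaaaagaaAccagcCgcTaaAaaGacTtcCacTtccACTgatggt
HTB2: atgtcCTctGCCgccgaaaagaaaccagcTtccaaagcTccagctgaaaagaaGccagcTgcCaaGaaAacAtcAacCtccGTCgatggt
The pair of HHF genes differs at 3 of these 90 bases and the pair of HTB genes at 18. The study kept fragments with a mapping quality above 20, and how many that fitted both copies were lost is not known here, so the absolute level of each copy, and of HHF1 and HHF2 above all, is uncertain.

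The 8 core histone genes were among the most abundant transcripts of the cell. Beside the phosphomutants, wild type cells had 1.36%, 1.48% and 1.14% of all TPM in these genes, and the wild type of the deletion set had 1.48%, 1.24% and 1.47%. HHT2 had the highest wild type level of the 10 (rank 85 of 7126 genes beside the phosphomutants and 64 beside the deletions), followed by HTB1 (ranks 108 and 73). HTZ1 ranked 581 and 524 and HHO1 ranked 1017 and 950. The plot of TPM by sample shows the core genes between 533 and 3399 TPM, HTZ1 between 165 and 310 TPM and HHO1 between 85.1 and 206 TPM.

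**Figure D1:**
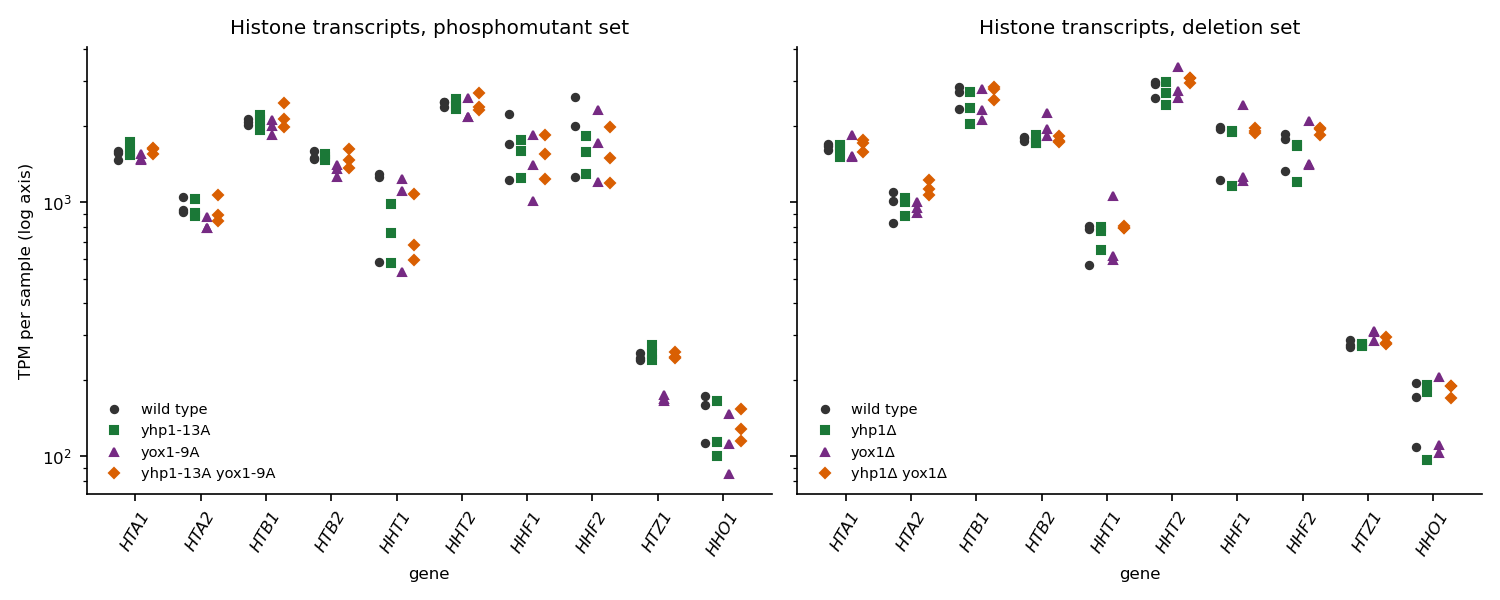
TPM of each histone gene in each sample (log axis), for the 4 strains of the phosphomutant set (left) and of the deletion set (right), with 1 point per replicate. HHT2 lies at or near the top and HHO1 at the bottom, and the HTZ1 points of yox1-9A (165 to 174 TPM) lie apart from the other strains of that set.

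Few histone genes differed from wild type. A gene was called when its adjusted p was below 0.1 in limma on log2(TPM + 1), with Benjamini-Hochberg adjustment over all genes tested. In yox1-9A, 1 of the 10 genes (HTZ1) was called, and it was lower; 0.285% of the 6316 tested genes were called in that comparison and 0.111% were called lower. In yhp1-13A 0 of the 10 were called (0% of tested genes) and in yhp1-13A yox1-9A 0 of the 10 (0.0158%). In the deletion set 0 of the 10 were called in yhp1Δ (0.127% of 6311 tested genes), 0 in yox1Δ (0.364%) and 0 in yhp1Δ yox1Δ (0.634%). In each of these 5 comparisons 0 members had an unadjusted p below 0.05, and limma-voom on recovered fragments also called 0. Those counts of called genes over the whole table rested on few calls, and for yox1-9A the count was 18 as given, 28 with limma-voom, and 52 with the replicate number as a block. Samples that did not overlap with wild type were also counted, and 0 of the 10 genes lay wholly below or wholly above it in yhp1-13A (2.82% and 0.538% of tested genes), in yhp1-13A yox1-9A (3.42% and 1.09%), in yhp1Δ (1.36% and 1.68%) or in yhp1Δ yox1Δ (4.41% and 4.8%). In yox1-9A 3 lay below (5.81%) and 0 above (1.74%), and in yox1Δ 0 lay below (2.69%) and 1 above (3.15%).

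**Figure D2:**
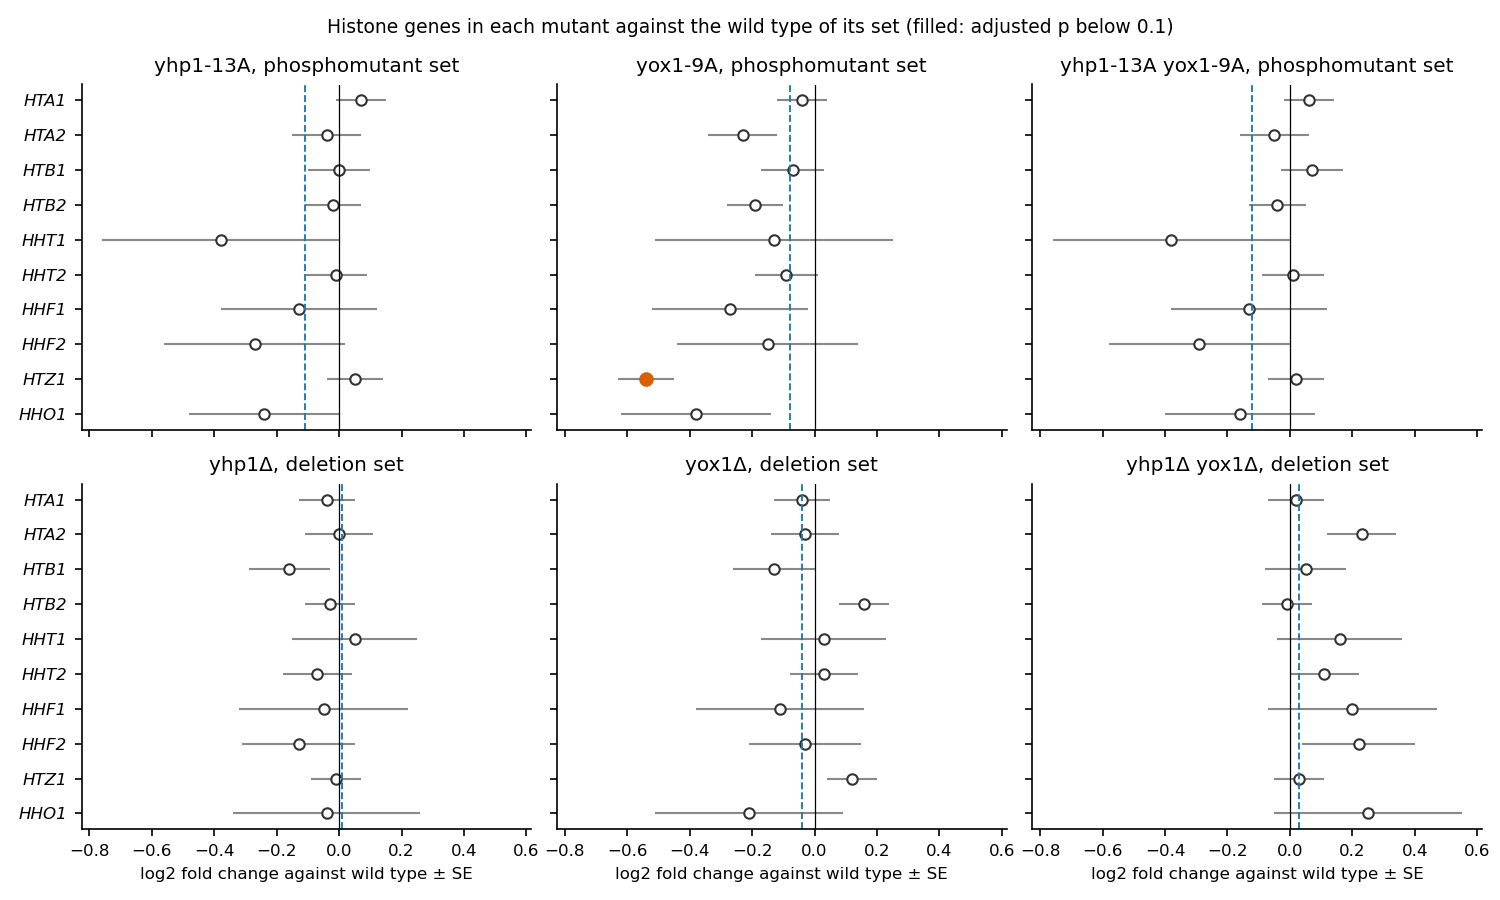
Log2 fold change of each histone gene against the wild type of its set, with bars of 1 standard error, in the 3 phosphomutant (top) and the 3 deletion strains (bottom). The dashed line is the median of all tested genes, and the single filled point is HTZ1 in yox1-9A (-0.54), the only gene of the 10 with an adjusted p below 0.1.

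As a group, the 10 genes lay close to the median of all tested genes. In yox1-9A all 10 log2 fold changes were negative, with a median of -0.17 against -0.08 over all tested genes. HTA1 (-0.04) and HTB1 (-0.07) lay above that median of all genes, and the rest of the 10 below it. In yhp1Δ yox1Δ 9 of the 10 were positive, with a median of 0.13 against 0.03. The share of all tested genes with the same sign was not counted in either comparison. The medians of the 10 were -0.03 in yhp1-13A (all genes -0.11), -0.05 in yhp1-13A yox1-9A (-0.12), -0.04 in yhp1Δ (0.01) and -0.03 in yox1Δ (-0.04). The negative medians over all genes in the phosphomutant set moved to between 0 and 0.01 under median-of-ratios scaling, so values in that set are read relative to them. The members are neighbours that share promoters and near-identical copies, and are not independent measurements.

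HTA1 and HTB1 share 1 intergenic region and gave more H2A and H2B transcript than HTA2 and HTB2 in every sample. HTA1, the major H2A gene by level, stood at 1558, 1595 and 1469 TPM in wild type and, in the same set, at 1465, 1474 and 1546 TPM in yox1-9A. These groups overlapped, and the level of HTA1 stayed between 1465 and 1841 TPM over all 24 samples. HTA1 exceeded HTA2 by 1.5 to 1.96 times among the phosphomutant libraries and by 1.4 to 2.05 times among the deletion libraries, and HTB1 exceeded HTB2 by 1.27 to 1.55 and by 1.09 to 1.63 times.

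HTA2 and HTB2, the other divergent pair for H2A and H2B, had slightly lower levels in yox1-9A than in wild type. HTA2 was at 928.7, 1051 and 913.5 TPM in wild type and 792.3, 874.1 and 789.8 TPM in yox1-9A. HTB2 was at 1498, 1486 and 1588 TPM in wild type and 1260, 1406 and 1349 TPM in yox1-9A. For both genes all 3 yox1-9A samples lay below all 3 wild type samples, as they also did for HTZ1, which made 3 of the 10 genes where 5.81% of tested genes did so. The log2 fold changes were -0.23 (SE 0.11) for HTA2 and -0.19 (SE 0.09) for HTB2, and neither was called in limma (adjusted p of 1 for both). In yhp1-13A yox1-9A the values of HTA2 (887.2, 1070 and 846.6 TPM) and HTB2 (1370, 1618 and 1464 TPM) overlapped those of wild type.

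In the deletion set HTB2 went the other way in yox1Δ. Its level was 1748, 1814 and 1786 TPM in wild type and 2244, 1824 and 1944 TPM in yox1Δ. All 3 yox1Δ samples lay above wild type, the lowest of them (1824 TPM) only just above the highest wild type sample (1814 TPM). The log2 fold change was 0.16 (SE 0.08) and was not called (adjusted p = 0.97 in limma), and in yhp1Δ yox1Δ the same gene was at 1827, 1745 and 1722 TPM, which overlapped wild type. HTA2 was highest in yhp1Δ yox1Δ, at 1226, 1069 and 1132 TPM against 1008, 825.1 and 1097 TPM in wild type, and there the groups overlapped (log2 fold change 0.23, SE 0.11, adjusted p = 0.98 in limma). HTB1 was at 2843, 2329 and 2708 TPM in wild type, and every mutant of the deletion set had samples within that range.

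HHT2 gave more H3 transcript than HHT1 in every sample. In wild type, HHT2 stood at 2491, 2488 and 2368 TPM beside the phosphomutants and at 2981, 2582 and 2910 TPM beside the deletions, and it varied little between replicates. HHT1 stood at 1294, 1256 and 580.3 TPM in the first of these and at 808.7, 567.5 and 783.6 TPM in the second. The third wild type replicate of the phosphomutant set thus had by far the lowest HHT1 level of its group, while its HHT2 level was close to theirs. The ratio of HHT2 to HHT1 therefore ranged from 1.92 to 4.14 in the phosphomutant set and from 3.22 to 4.62 in the deletion set, without a difference between strains that was called for either gene.

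The H4 genes varied between replicates in the same libraries. HHF1 was at 1695, 2225 and 1225 TPM in phosphomutant-set wild type and HHF2 at 1990, 2587 and 1258 TPM. The ratio of HHF2 to HHF1 stayed between 0.89 and 1.25 in that set and between 0.864 and 1.16 in the deletion set. The 2 H4 genes thus rose and fell together across libraries. They lie on different chromosomes, but their coding bases are near identical. Both also followed the first residual component described below. Pearson correlations of HHF1 and HHF2 with it were -0.841 and -0.935 in the phosphomutant set and -0.996 and -0.992 in the deletion set. The part of either in their likeness was not tested. Summed over copies, H3 to H4 ranged from 0.778 to 1.22 and from 0.965 to 1.3, and H2B to H2A from 1.31 to 1.51 and from 1.5 to 2. In yox1-9A the log2 fold changes were -0.13 (SE 0.38) for HHT1, -0.09 (SE 0.10) for HHT2, -0.27 (SE 0.25) for HHF1 and -0.15 (SE 0.29) for HHF2. The standard errors of HHT1, HHF1 and HHF2 were larger than those of HHT2, HTA1 (0.08) and HTZ1 (0.09).

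HTZ1 was lower in yox1-9A than in every other strain of its set. It stood at 255.8, 242.7 and 238.3 TPM in wild type, at 252.1, 239.5 and 274.5 TPM in yhp1-13A, at 173.5, 164.7 and 167.8 TPM in yox1-9A and at 246.0, 242.4 and 257.6 TPM in yhp1-13A yox1-9A. The 3 yox1-9A samples lay below all 9 others, and the 9 others overlapped across their strains. The share of tested genes with yox1-9A below all 9 others was not counted. Against wild type alone that share was 5.81%. The log2 fold change in yox1-9A was -0.54 (SE 0.09, adjusted p = 0.037 in limma), from a mean of 246 ± 9.07 TPM to 169 ± 4.46 TPM (SD, n = 3). In yhp1-13A it was 0.05 (SE 0.09) and in yhp1-13A yox1-9A 0.02 (SE 0.09), and neither was called. The values rest on 1390 to 2388 recovered fragments of HTZ1 a sample.

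**Figure D3:**
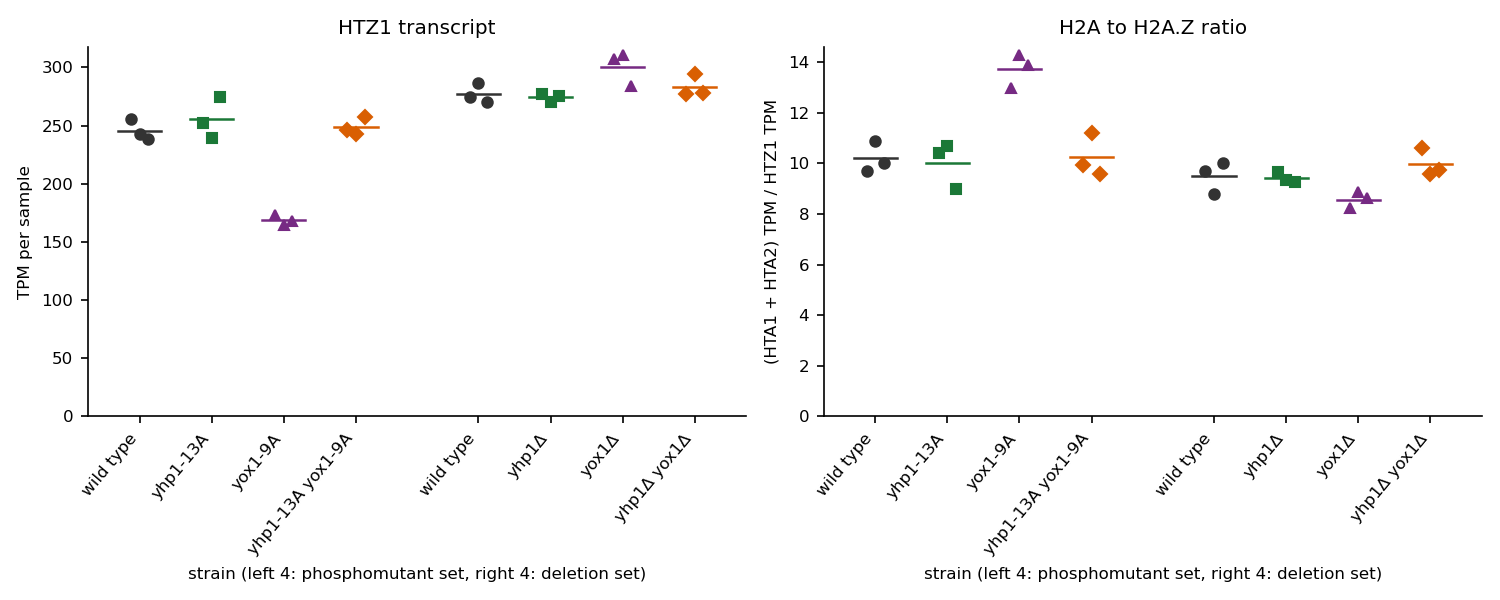
Level of HTZ1 in TPM (left) and the ratio of H2A transcript (HTA1 plus HTA2) to HTZ1 (right), with 1 point per replicate and a line at the mean of each strain, both axes from 0. The yox1-9A points stand apart from the rest of the phosphomutant set in both panels (165 to 174 TPM, and ratios of 13.0 to 14.3), and yox1Δ lies at 284 to 310 TPM.

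The call on HTZ1 was close to the threshold. It was lost when any of 5 of the 6 samples was left out (wild type replicate 1 or 2, or any yox1-9A replicate), with log2 fold changes of -0.56 to -0.51 over the 6 and adjusted p from 0.091 to 0.32, when only the 2 groups were fitted (-0.54, adjusted p = 0.32 in limma), and under median-of-ratios scaling (-0.44, adjusted p = 0.52 in limma). With the replicate number as a block the log2 fold change was also -0.54 and the adjusted p was 0.006 in limma.

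The double mutant carried the same yox1-9A allele but did not share the low HTZ1 level. HTZ1 was 0.56 higher on the log2 scale in yhp1-13A yox1-9A than in yox1-9A (SE 0.09, adjusted p = 0.033 in limma), the only call among the 10 genes in that comparison, in which 0.348% of tested genes were called. That call was lost when any 1 of the 6 samples was left out (0.53 to 0.58, adjusted p from 0.11 to 0.17), when only the 2 groups were fitted (0.56, adjusted p = 0.30) and under median-of-ratios scaling (0.59, adjusted p = 0.15), all in limma. The interaction of both mutations, which tests whether the effect of yox1-9A differs in the presence of yhp1-13A, was 0.50 for HTZ1 (SE 0.13) and was not called (adjusted p = 0.88 in limma; 0 of the 10 genes and 0.0317% of tested genes were called, and HTZ1 was the 1 gene of the 10 with an unadjusted p below 0.05). A difference in the yox1-9A effect between the 2 backgrounds was therefore not shown across all genes tested. Against yhp1-13A, the double mutant had 0 of the 10 genes called (0% of tested genes).

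A ratio taken within a sample does not depend on how samples were scaled. H2A transcript exceeded HTZ1 transcript 13.0, 14.3 and 13.9 times in yox1-9A, and 9.72, 10.9 and 10 times in wild type. The other 2 mutants of the set had ratios of 8.99 to 11.2, so the yox1-9A samples did not overlap with any of them. The ratios were not tested.

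HTZ1 did not have a low level in any strain of the deletion set. It was at 274.8, 286.2 and 270.1 TPM in wild type, 277.5, 270.3 and 275.0 TPM in yhp1Δ, 306.8, 310.2 and 283.9 TPM in yox1Δ and 276.8, 294.6 and 278.3 TPM in yhp1Δ yox1Δ. In yox1Δ 2 of the 3 samples lay above wild type, with a log2 fold change of 0.12 (SE 0.08, adjusted p = 0.97 in limma). H2A to HTZ1 was 8.22, 8.86 and 8.62 in yox1Δ and 9.71, 8.80 and 10 in wild type, and these groups overlapped. The yox1-9A and yox1Δ strains were not grown against the same wild type samples, and their difference was not tested.

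Other features of the strain and its libraries moved with HTZ1 or were measured beside it. Within the phosphomutant set yox1-9A was the only strain without the LEU2 marker and with an untagged YHP1, and LEU2, which encodes a leucine biosynthesis enzyme, was at 0.0433 to 0.0451 TPM there against 58.3 to 107 TPM in the other strains. The allele, the marker and the untagged YHP1 cannot be told apart in that set. In the deletion set yox1Δ likewise lacked the marker, with LEU2 at 0 to 0.128 TPM, and the part of the marker in the HTZ1 level was not tested in either set. Libraries also differed in how their values varied with GC content, as described below. The log2 difference in HTZ1 was -0.56 among libraries in which values fell with GC content (2 mutant and 2 wild type samples) and -0.50 among those in which they rose, where 1 sample of each gives no spread.

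The genes beside HTZ1 did not show the same difference in yox1-9A. HRD1, which lies downstream and encodes a ubiquitin ligase of the endoplasmic reticulum, had a log2 fold change of 0.02 (SE 0.13). PLB3, the divergent upstream neighbour and a phospholipase gene, had 0.30 (SE 0.15), and RCL1 and YOL014W had -0.03 (SE 0.17) and 0.30 (SE 0.27). None was called, with adjusted p of 1 in limma for all 4.

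Motif letters were searched on both strands in windows of 300 bases at each start codon, from 250 bases before it to 50 bases into the gene, and in 6430 such windows of annotated genes. The core of the Mcm1 motif (CC and GG with any 6 bases between them) was present for 5 of the 10 genes (HTB1, HHT1, HHT2, HHF1 and HHF2) and in 28.8% of windows. In HHT2, HHF1 and HHF2 it lay within the first coding bases and not before the start codon. GTAAACA, bound by forkhead factors, was present for HHF1 and in 6.42% of windows. The homeodomain cores TAATTA and TAATTG were present for 0 of the 10 genes and for HHO1 alone, and in 15.7% and 25.0% of windows. The MBF core ACGCGT was present for 0 of the 10 and in 3.19% of windows. It did occur between HTA2 and HTB2 (chrII:236129-236134), 337 bases from the start of HTA2 and 357 from that of HTB2. That site lies outside the windows, which do not cover the whole of the shared intergenic regions. Matches were not checked for overlap between motifs, and a match describes the letters only.

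HHO1, the linker histone gene, had the lowest level of the 10 and a wide spread. It stood at 158.8, 172.9 and 113.0 TPM in phosphomutant-set wild type and at 111.6, 146.2 and 85.1 TPM in yox1-9A, and these groups overlapped (log2 fold change -0.38, SE 0.24, not called). In the deletion set it was at 194.1, 108.5 and 170.8 TPM in wild type and 188.3, 188.1 and 170.1 TPM in yhp1Δ yox1Δ (0.25, SE 0.30, not called). The mean of the 8 core genes exceeded HHO1 by 9.77 to 15.6 times in one set (phosphomutants) and 9.47 to 15.3 times in the other.

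The spread between replicates separated the 10 genes into tight and wide ones. The SD of log2(TPM + 1) within groups was 0.06 for HTA1 and for HTZ1 in the phosphomutant set, and only 0.269% and 0.443% of tested genes had a smaller one. HTZ1 was as tight in the deletion set (0.05, with 0.475% of tested genes below it). At the other end, HHT1 had an SD of 0.55 in the phosphomutant set, above 94.9% of tested genes, and HHO1 one of 0.44 in the deletion set, above 95.1%. Over all tested genes the median was 0.24 for phosphomutant libraries and 0.18 for deletion libraries. The 4 genes HHT1, HHF1, HHF2 and HHO1 had an SD above that median in both sets, and the other 6 had one below it in both. Among genes at levels like those of the 10, the median was lower (0.19 and 0.15), and against it HTB1 (0.17) was above the median in the deletion set as well.

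**Figure D4:**
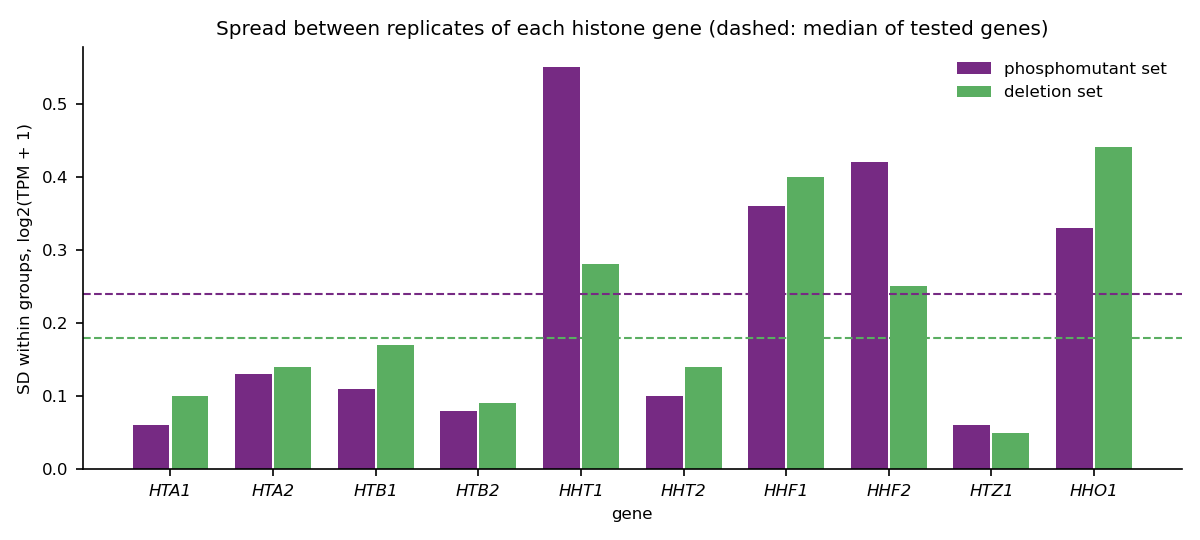
SD of log2(TPM + 1) between replicates within groups (bars, axis from 0) for each histone gene in the phosphomutant and the deletion set, with dashed lines at the median of all tested genes (0.24 and 0.18). HHT1, HHF1, HHF2 and HHO1 lie above the lines in both sets and the other 6 genes below them.

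Among the phosphomutant libraries HHT1 and HHF2 differed with a property of the library. For each library the slope of gene deviations against GC content was computed over all genes with known GC content, and it was negative in 6 libraries (-0.286 to -0.0503 on the log2 scale per 10 percentage points of GC) and positive in 6 (0.117 to 0.284). HHT1 was at 985 to 1290 TPM in the 6 libraries with a negative slope, with a median of 1170, and at 533 to 757 TPM in the 6 with a positive slope, with a median of 585. The groups did not overlap, and each strain had libraries in both. HHF2 was at 1710 to 2590 TPM and at 1190 to 1570 TPM in the same libraries, also without overlap. The other wide genes did overlap, HHF1 at 1400 to 2220 and 1010 to 1770 TPM and HHO1 at 112 to 173 and 85.1 to 165 TPM. HHT2 (2170 to 2560 and 2170 to 2710 TPM), HTA1 (1460 to 1720 and 1470 to 1640 TPM) and HTZ1 (165 to 256 and 168 to 275 TPM) overlapped almost fully. The coding sequences of HHT1 and HHT2 have GC contents of 43.3% and 41.8%, and the part of GC content in the difference between these copies was not tested.

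In the deletion set the slopes were small (-0.108 to 0.121). Its libraries are described by the first residual component, computed without the 10 genes, which held 43.8% of the residual variance. The sign of such a component is arbitrary. In both sets it was set so that HHF1 correlated negatively with the score. HHF1 was at 1221 TPM in wild type replicate 2, 1161 TPM in yhp1Δ replicate 2 and 1214 and 1254 TPM in yox1Δ replicates 2 and 3, which were the 4 libraries with scores from 0.263 to 0.438. It was at 1868 to 2421 TPM in the other 8 libraries, whose scores lay from -0.536 to 0.033. HHF2, HHT1, HHO1, HTB1 and HTA2 were lowest in the same 4 libraries. Deviations of HHO1, HHT1, HHT2, HTB1 and HTA2 correlated with the score at -0.988, -0.949, -0.936, -0.897 and -0.769 (Pearson). Those of HTB2, HTZ1 and HTA1 lay at -0.294, -0.0928 and 0.357, so most of the 10 genes fell with the score in this set. The 3 yhp1Δ yox1Δ libraries had scores close to 0 (-0.038 to 0.033) and HHF1 levels of 1868, 1965 and 1913 TPM, while wild type and yhp1Δ each held 1 of the 4 low libraries and yox1Δ held 2. The part of the component in the histone levels of that strain was not tested. In the phosphomutant set the first residual component held 63.3% of the residual variance. Deviations of HHT1, HHF2, HHF1 and HHO1 correlated with its score there at -0.977, -0.935, -0.841 and -0.698 (Pearson). The other genes of the 10 lay between -0.218 (HTA1) and 0.492 (HTB2). Slope and score had the same sign in each library of that set, so they cannot be read there as separate library properties.

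**Figure D5:**
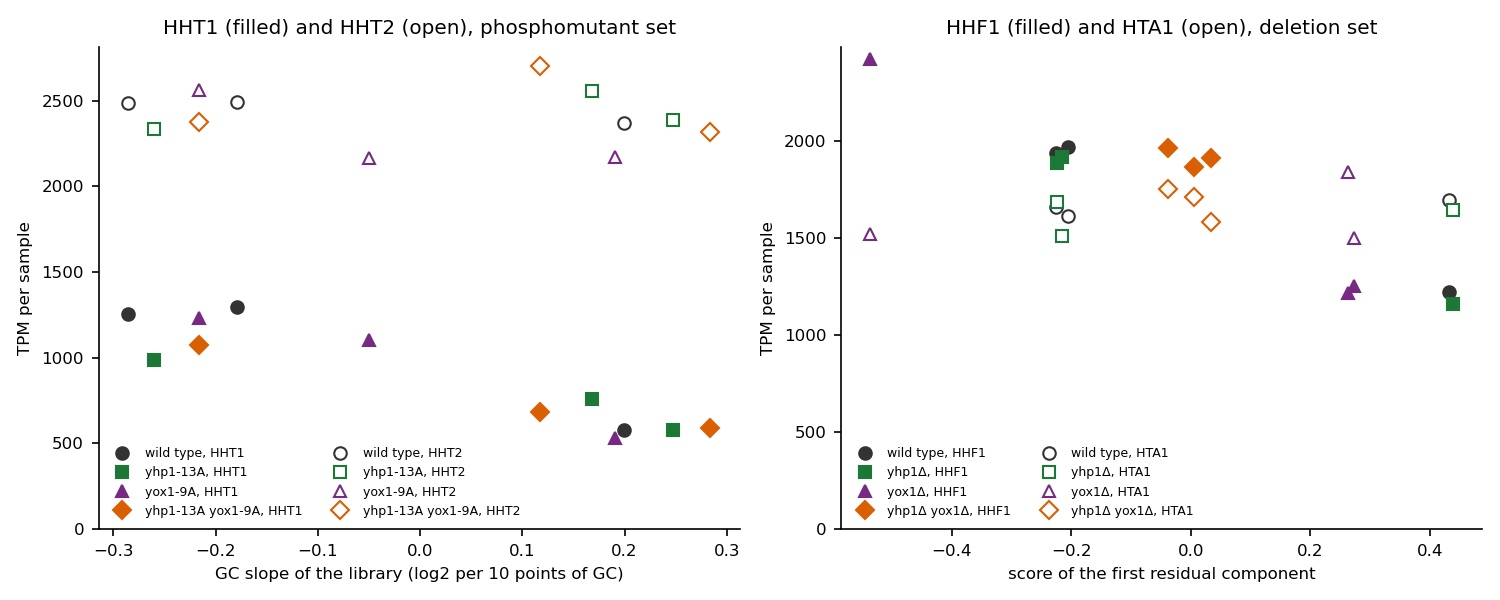
Left, HHT1 (filled) and HHT2 (open) TPM of each phosphomutant-set library against the slope of its values with GC content; right, HHF1 (filled) and HTA1 (open) TPM of each deletion-set library against its score on the first residual component. HHT1 falls from 985 to 1290 TPM at negative slopes to 533 to 757 TPM at positive ones, and HHF1 from at least 1868 TPM to 1161 to 1254 TPM at high scores, while HHT2 and HTA1 stay level.

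Within the deletion set, yhp1Δ yox1Δ was also compared with each single deletion. Against yhp1Δ 0 of the 10 genes were called (0.539% of tested genes), and 0 had an unadjusted p below 0.05 in limma, with HHF2 at 0.35 (SE 0.18) and HTA2 at 0.23 (SE 0.11). Against yox1Δ 0 were called (0.57%), with HHO1 at 0.45 (SE 0.30), HTA2 at 0.26 (SE 0.11) and HTB2 at -0.18 (SE 0.08), of which HTA2 and HTB2 had an unadjusted p below 0.05 in limma. When the sign of the residual component was added as a term, 6 of the 10 were called higher against yhp1Δ (HTA2, HTB1, HHT2, HHF1, HHF2 and HHO1, at 0.25 to 0.51), but so were 13.4% of all tested genes in either direction. Against yox1Δ the same term gave 2 calls (HTA2 at 0.26 and HHO1 at 0.45) and 16.1% of tested genes. The scores of the 3 double mutant libraries differ in sign while lying near 0, so small differences decide where this term places them. The interaction of both deletions was called for 0 of the 10 (0.19% of tested genes).

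The genes that control or handle histones showed little difference either. The 12 transcription regulators of histone genes had 0 called in any of the 6 comparisons with wild type, and the largest value was that of SWI4, the DNA-binding subunit of SBF, at 9.57 ± 0.80 TPM in wild type and 14.2 ± 0.446 TPM in yhp1Δ yox1Δ (SD, n = 3; log2 fold change 0.52, SE 0.13). All 3 mutant samples lay above wild type, as for 4.8% of tested genes, and the adjusted p was 0.22 in limma. In yox1Δ SWI4 was at 12.7 ± 2.13 TPM (0.37, SE 0.13, adjusted p = 0.87 in limma). In the phosphomutant set the largest values of that list were -0.42 for SPT21 in yhp1-13A, -0.29 for MBP1, the DNA-binding subunit of MBF, in yox1-9A and -0.43 in the double mutant, for both SPT21 and SWI6, a subunit of both factors.

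Neither the chaperones of free histones nor the H2A.Z exchange factors had a called gene. Of 12 chaperones and acetyltransferases, the median log2 fold change lay between -0.15 and 0.12 over the 6 comparisons, and the largest single values were POB3, a subunit of the FACT chaperone, at -0.41 (SE 0.36) in yhp1-13A yox1-9A and HIF1 at 0.36 (SE 0.28) in yhp1Δ yox1Δ. The 12 H2A.Z exchange factors had a median of -0.13 in yox1-9A, with SWC7, a subunit of the SWR1 complex, furthest from 0 at -0.29 (SE 0.27). The SWR1 gene itself was at 0.01 (SE 0.26) there. Over all comparisons with wild type the list ran from CHZ1 at -0.41 (SE 0.36) in yhp1-13A to SWC7 at 0.55 (SE 0.28) in yhp1Δ. SWC7 was a low gene, with a wild type mean of 4.28 TPM in the deletion set. Of the 3 genes for the centromeric H3 variant Cse4 and its handlers, SCM3, the chaperone of Cse4, was at -0.33 (SE 0.22) in yhp1-13A and at 0.31 (SE 0.13) in yhp1Δ yox1Δ, and 0 were called in any comparison.

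Cell cycle markers were measured as a sign of the phase makeup of the cultures. Of the 6 G1/S genes 0 were called in any comparison. In yox1-9A the largest was POL30, which encodes the replication clamp PCNA, at -0.29 (SE 0.12). All 3 yox1-9A samples lay below wild type, as for 5.81% of tested genes. Of the 6 G2/M genes and the 6 M/G1 genes 0 were called, with CLB1 at -0.31 (SE 0.28) and CTS1 at -0.33 (SE 0.19) in the same strain. DSE1, an M/G1 gene, was at -0.24 (SE 0.15) there, also with all 3 samples below wild type. Over all comparisons with wild type the largest M/G1 value was that of SIC1, at -0.45 (SE 0.27) in yhp1-13A yox1-9A. Other markers in yox1-9A had positive values, the S-phase cyclin gene CLB6 at 0.27 (SE 0.24) and the mitotic cyclin gene CLB2 at 0.22 (SE 0.15). For CLB2 all 3 samples lay above wild type, as for 1.74% of tested genes. CLB6 was at 0.52 (SE 0.26) in yox1Δ. The part of the phase makeup in the histone levels was not tested. The a-cell gene MFA1, which encodes the precursor of a-factor, was at 3650 ± 236 TPM in wild type, 2140 ± 38.8 TPM in yox1-9A and 2400 ± 367 TPM in yhp1-13A yox1-9A (SD, n = 3), and was not called in either (adjusted p of 0.11 and 0.63 in limma).

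The genes whose deviations from the group means most resembled the mean of the 8 core genes were ranked by Pearson correlation over the 12 samples of each set. In the phosphomutant set they were NOC2, OPY2, CPR6, ORA1 and RBA50 (0.978 to 0.988, of 6306 genes), and in the deletion set SRP21, PCC1, RHO3, MCM1 and ZIM17 (0.991 to 0.994, of 6301). These values describe variation between replicates within strains, in libraries that share the slope and the component above, and the lists of the 2 sets had no gene in common.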

How the data were processed

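RNA from 24 yeast cultures was sequenced, and the authors deposited TPM values for 7126 genes, with replicates kept apart. The authors aligned paired-end reads to R64-1-1, and fragments on exons with a mapping quality above 20 were counted; the submitters' processing notes name STAR 2.5.3a and featureCounts 1.5.2. How TPM were made from counts is not given in the sources used here. By the methods poly-A RNA was purified, by the labels it was depleted. The number of unused sample columns was 0.

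The study tested counts. As the values are TPM, limma 3.58.1 in R 4.3.3 was run on log2(TPM + 1) for the 4 strains of a set together, with a trended eBayes and two-sided tests, keeping genes whose mean TPM was 1 or more. Fold changes on this scale understate changes of low genes. TPM and gene lengths gave back fragment numbers, whole within 0.05 for 100% of genes, and replicates differed by more than counting noise (chi-squared per degree of freedom 9.46 to 167). The fit was run on simulated data with 200 genes changed by 2-fold. Of these, 158 (79%) were recovered in the phosphomutant set (12.2% of calls were wrong) and 184 (92%) in the deletion set (10.2%). Simulated noise was drawn separately for each gene, without the slope or component that real libraries share. A 2-fold change is also larger than that of HTZ1 in yox1-9A (-0.54 on the log2 scale). These rates may therefore not hold for the real data.

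Replicate numbers came from the sample titles. Residuals of libraries with equal numbers were compared: yox1-9A and wild type gave 0.52 to 0.83, yhp1Δ and wild type 0.48 to 0.75, and yhp1-13A and the double phosphomutant 0.43 to 0.72, so numbers were taken to pair samples in those comparisons only. The alternatives were other pseudocounts, TPM filters, scalings and limma settings, limma-voom, terms for GC slope, component or replicate, and leaving out each sample; no sample was dropped from the reported fit.

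The set of 10 genes, defined by name, and the lists were chosen with earlier results of these data known. Named genes were the 10 histone genes, the largest change of each list where none was called, the 5 most similar genes per set, and YHP1 and YOX1. SWR1, LEU2 and the neighbours of HTZ1 were added after their values were seen. Sequences, positions and GC content came from RefSeq R64, to which 6048 identifiers matched (94.4% of them with equal length). Motifs were searched as written. One upstream sequence and its motif search are not reported here.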

Additional observations from a re-analysis of the deposited data

How the results depend on the processing

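A change of sign was read as such only where both values exceeded their standard errors or a call was involved, and none occurred. Of the log2 values of the 10 genes, 1407 under other settings and 829 with a sample left out stayed on their side of the threshold, 9 gained a call under another setting, and 4 and 11 lost one. The exceptions in HTZ1 were yox1-9A against wild type (-0.44 under median-of-ratios scaling and -0.54 with only the 2 groups fitted, with 0 genes called; -0.56 to -0.51 with a sample left out, with 0 or 1 called), the double phosphomutant against yox1-9A (0.59 and 0.56 in the same settings, with 0 called; 0.53 to 0.58 with a sample left out, with 0 called) and the interaction without a filter on TPM (0.50, adjusted p = 0.087 in limma, 1 called). With the residual component as a term, 6 genes were called in yhp1Δ yox1Δ against yhp1Δ (HTA2 0.27, HTB1 0.30, HHT2 0.25, HHF1 0.45, HHF2 0.48 and HHO1 0.51) and 2 against yox1Δ (HTA2 0.26 and HHO1 0.45). The cause of these differences was not tested.

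The replicate block changed no call of the 10 genes. With it, HTZ1 in yox1-9A was at -0.54, and the counts of all genes called moved from 18 to 52 in yox1-9A, 0 to 3 in yhp1-13A, 1 to 29 in the double phosphomutant, 23 to 43 in yox1Δ, 34 to 58 and 36 to 82 in yhp1Δ yox1Δ against yhp1Δ and yox1Δ, 22 to 65 in the double phosphomutant against yox1-9A, 0 to 3 against yhp1-13A and 2 to 14 in the interaction. Where numbers did not pair the samples, correlations of same-numbered samples ranged from -0.24 to 0.67. Over the other settings, counts of all genes called ranged from 6 to 104 in yox1-9A, 0 to 2 in yhp1-13A, 0 to 26 in the double phosphomutant, 5 to 10 in yhp1Δ, 14 to 36 in yox1Δ and 27 to 92 in yhp1Δ yox1Δ. The widest range was 23 to 1017 in yhp1Δ yox1Δ against yox1Δ. With 1 sample left out, the counts ranged from 10 to 19 in yox1-9A (10 without wild type replicate 1), 0 to 2 in the double phosphomutant, 14 to 22 in yox1Δ (14 without wild type replicate 3) and 17 to 34 in yhp1Δ yox1Δ (17 without its replicate 1), and from 9 to 15, 19 to 29 and 15 to 28 in the double mutants against yox1-9A, yhp1Δ and yox1Δ.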
